A study of Mus musculus with 26 samples.

Results

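The DEAD and DEAH box RNA helicases are described here as 54 mouse genes, out of 22380 protein-coding genes of the GENCODE M1 annotation on the mouse build mm9. Their members were chosen by name, as the protein-coding genes whose symbol begins with Ddx or Dhx followed by a digit. These enzymes use ATP to unwind short RNA duplexes or to strip proteins from RNA, and the letters DEAD or DEAH spell the residues of the motif that helps to hydrolyse the ATP. They accompany RNA through its whole life: some drive the rearrangements of the spliceosome, some assemble ribosomes in the nucleolus, and others act in export, translation and decay of mRNA. Stem cells divide fast and make many ribosomes, which keeps such enzymes in steady use. In translations of the annotated coding transcripts, which 53 members had, the letters DEAD after a hydrophobic residue or a cysteine occurred in 28 of 37 Ddx genes, and DEAH so placed in 8 of 16 Dhx genes. In 1 Ddx gene DEAH was found, and in 8 Ddx and 8 Dhx genes neither. The name therefore covers more than the strict motif, and Ddx11 acts on DNA.

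RNA 5-hydroxymethylcytosine (5hmC) is an oxidised form of 5-methylcytosine that the Tet enzymes make. It was mapped by hMeRIP-Seq, in which fragmented RNA is pulled down with an anti-5hmC antibody and sequenced beside an input library. The lists of 13 immunoprecipitated (IP) libraries fall into 5 groups. The first is WT ESC (3 libraries), mouse embryonic stem cells with intact Tet genes. The next, TKO ESC (3 libraries), has the genotype Tet1-Tet2-Tet3-KO. The third, WT EB (3 libraries), holds embryoid bodies grown from wild-type cells for 4 days without leukemia inhibitory factor (LIF). Tet2-KI ESC (2 libraries) and Tet2dRBD-KI ESC (2 libraries, Tet2deltaRBD-KI in the labels) derive from wild-type stem cells and carry a Flag, HA and Twin-Strep tag at the C-terminus of endogenous Tet2, the latter without the RNA-binding domain. All stem cells were grown with LIF. The knock-in lines were picked as clones, and how many clones stand behind the replicates is not given in the sources used here. The study describes its hMeRIP-Seq replicates as independent experiments, while the labels do not tie them to cultures, so p-values measure the spread between these libraries. The lists held between 498 (WT EB replicate 1) and 10383 (Tet2-KI ESC replicate 1) peaks, with 964 in TKO ESC replicate 1. In the 3 groups other than the knock-ins, the label of replicate 1 begins with 1608 or 1610 and those of replicates 2 and 3 with 1703, and the labels do not say what the numbers mark. The knock-in libraries carry no such number. Peaks in Tet1 were listed in 3 of 3 WT ESC and 3 of 3 TKO ESC libraries, in Tet2 in 1 and 0 and in Tet3 in 0 and 0, but a list of peaks does not measure the level of a transcript and checks no knockout. Likewise no marker of stem cells could be checked.

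A peak was placed in a helicase when its summit, the centre of a 200 bp interval, lay in the span of the gene. Of 56538 peaks in all, 47901 pairs of a peak and a protein-coding gene were found, and 394 of them were in helicases. Intervals of all libraries that overlapped were merged into 23367 regions, of which 98 were in helicases. In the 9 libraries outside the knock-in lines each peak also has a fold enrichment, the ratio of IP to matched input. The knock-in lists give positions only. Sequencing depth is unknown, and the absence of a peak says only that none passed the threshold, not that 5hmC was absent. In these bulk samples, fewer cells of a type and less RNA per cell cannot be told apart.

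Helicase transcripts held peaks often. Of the 54 genes, 33 (61.1%) had a peak in at least 1 of the 13 libraries, beside 32.2% of all protein-coding genes. A peak in at least 10 libraries was found in 6 helicases (11.1%), beside 2.25% of all genes. These 6 were Ddx10 (13 libraries), Dhx8 (13), Ddx46 (12), Ddx3x (12), Ddx17 (11) and Ddx42 (10). A further 12 genes had peaks in 5 to 9 libraries, 8 in 2 to 4 and 7 in 1. In each of the 13 libraries the share of helicases with a peak was above that of all coding genes. It ran from 7.41% (4 genes, WT EB replicate 1) to 48.1% (26 genes, Tet2-KI ESC replicate 1), against 1.84% and 18.7% of all coding genes in the same libraries. The median helicase span was 23.8 kb and that of all coding genes 15.4 kb, so per length of gene the numbers were compared too. Helicases held 2.46 to 40.6 peaks per Mb of span and all coding genes 0.465 to 8.57, with the helicases higher in 13 of 13 libraries. The level of these transcripts is not in the lists, and its part in the difference was not tested.

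**Figure D1:**
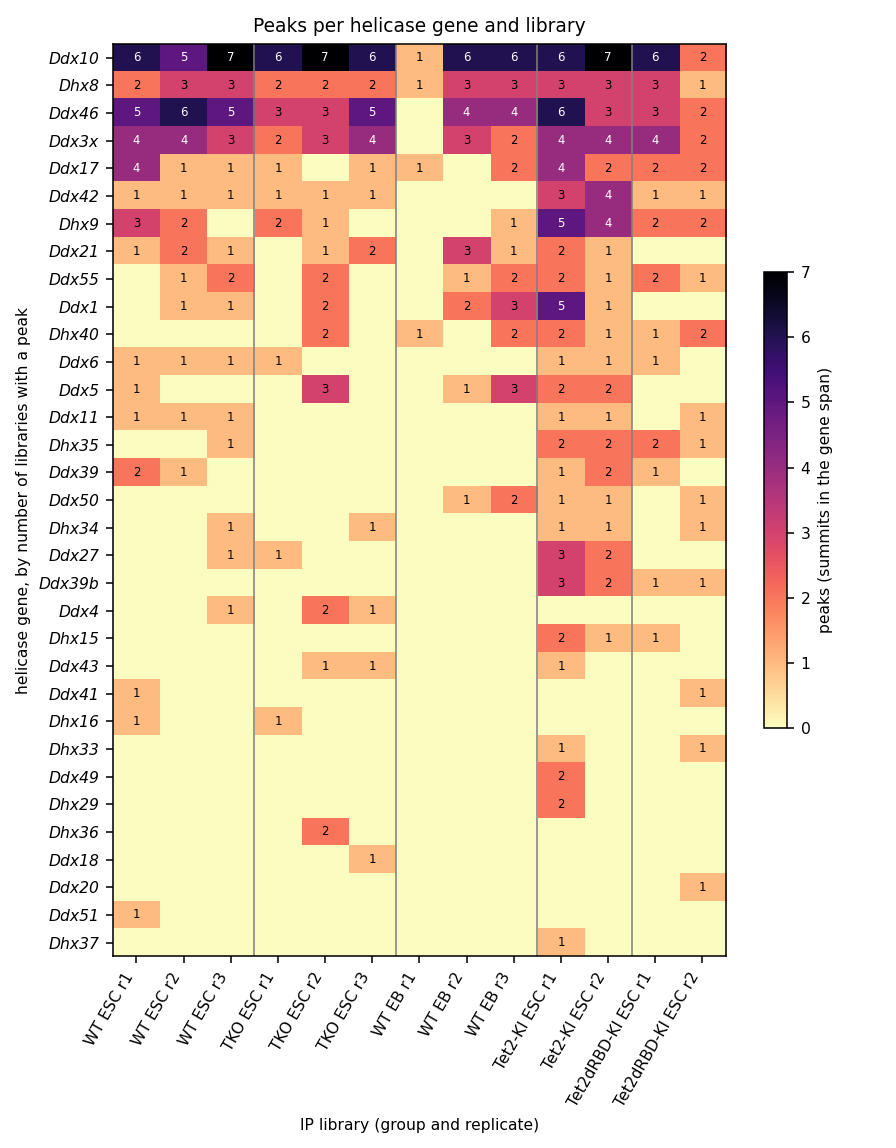
Number of peaks (colour and digits) in each of the 33 helicase genes with a peak (rows, by number of libraries) and each of the 13 IP libraries (columns, grouped by vertical lines). Ddx10 and Dhx8 are filled in all 13 columns, and Ddx10, Dhx8, Ddx46 and Ddx3x hold 190 of the 394 peaks.

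The peaks were unevenly shared among the members. Ddx10, Dhx8, Ddx46 and Ddx3x together held 190 of the 394 peaks (48.2%), and Ddx10 alone 71 (18%). The 21 genes without a peak in any library were Ddx19a, Ddx19b, Ddx23, Ddx24, Ddx25, Ddx26b, Ddx28, Ddx31, Ddx3y, Ddx47, Ddx52, Ddx54, Ddx56, Ddx58, Ddx59, Ddx60, Dhx30, Dhx32, Dhx38, Dhx57 and Dhx58. Their median span was 22.8 kb, against 24.9 kb for the 33 with a peak. Counted by role, peaks were found in 10 of 12 genes of pre-mRNA splicing (151 peaks), 10 of 16 of ribosome biogenesis (119 peaks), 5 of 8 of mRNA export, translation and decay (60 peaks) and 5 of 5 of transcription and genome maintenance (46 peaks). Among germline helicases, 2 of 3 held 7 peaks, namely Ddx4 (vasa), a marker of germ cells, in 1 WT ESC and 2 TKO ESC libraries, and Ddx43 in 2 TKO ESC and 1 Tet2-KI ESC library. No peak was listed in 3 of 3 sensors of viral RNA (Ddx58, which encodes RIG-I, Dhx58 and Ddx60) or in 2 of 2 mitochondrial helicases (Ddx28 and Dhx30). Of the remaining 5 genes, Dhx40 held 11 peaks.

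Dhx8 encodes the counterpart of yeast Prp22, the helicase that releases finished mRNA from the spliceosome. It held 31 peaks, 30 of them intronic, and 28 of these fell into 1 region in intron 7 (of 23 exons), chr11:101601266-101601980 on mm9, present in all 13 libraries. The highest fold enrichment there was 19.4, 30.6 and 32.3 in WT ESC replicates 1 to 3, 15.5, 22.5 and 22.9 in TKO ESC, and 8.5, 16 and 12.2 in WT EB. WT ESC and TKO ESC overlapped, and all but 1 of the WT EB values lay below all TKO ESC values. Its mean over the 9 libraries, 20 ± 7.98 (SD, n = 9), was the highest of the helicase regions found in all WT ESC libraries. Its median summit lies 378 bp from the nearest exon, the merged region runs on to the edge of exon 8, and most of it is a minisatellite. Over its 715 bp, the sequence equals itself at 80.9% of positions when shifted by 54 nt, and its most frequent 12-mer occurs 26 times, 14 times at a spacing of 26 nt and 11 times at 28 nt. How reads that map to several copies were treated is not given in the sources used here. The sequence around the median summit is shown from the NCBIM37 genome, 5′ to 3′ on the strand of the gene, with copies of that 12-mer in capitals.
Dhx8 intron 7, chr11:101601524-101601674, strand plus: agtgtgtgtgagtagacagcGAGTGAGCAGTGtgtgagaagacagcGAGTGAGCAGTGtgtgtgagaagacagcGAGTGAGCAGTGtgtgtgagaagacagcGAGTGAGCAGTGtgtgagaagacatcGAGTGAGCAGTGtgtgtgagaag

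Ddx10 encodes a nucleolar helicase of small ribosomal subunit assembly. Its span of 149659 bp on chromosome 9 is the longest in the family, and its 71 peaks fell into 6 regions. The map of summits along the gene shows that none lay before exon 13, 43.9 kb from the gene start. Coding sequence held 45 of the peaks and introns 26. The region at the last exon, exon 18 (chr9:52907136-52907507), was present in 12 libraries and missing in 1 Tet2dRBD-KI ESC library. Its fold enrichment was 5.94, 10.6 and 12.2 in WT ESC, 12.4, 30.6 and 13.4 in TKO ESC, and 5.24, 26.7 and 32.7 in WT EB. The 3 TKO ESC values were all above the 3 WT ESC values, and WT EB spanned both. The exon 17 region had values of 5.35, 4.88 and 15.6 in WT ESC and 10.1, 9.85 and 31.2 in TKO ESC, and the exon 15 region 3.75, 10.0 and 18.1 against 7.32, 35.3 and 8.63. In both regions the range within either group was wider than the difference between the group means. At exon 13 the fold enrichment was 11.2, 6.09 and 14.6 in WT ESC, 8.90, 16.1 and 7.41 in TKO ESC, and 12.8 and 19.2 in WT EB replicates 2 and 3. WT EB replicate 1, the shortest list, held only the exon 18 region of Ddx10.

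Ddx46 (the counterpart of yeast Prp5, which remodels the U2 snRNP at the branch point) and Ddx3x (an X-linked helicase that helps ribosomes start on structured mRNAs) came next, each with peaks in 12 of 13 libraries. In both, WT EB replicate 1 was the library without a peak. Ddx46 held 49 peaks in 6 regions, all within the first 17.0 kb of its 46230 bp. Its exon 6 region (chr13:55751677-55751915) had a fold enrichment of 3.37, 5.61 and 4.72 in WT ESC, 9.93, 6.25 and 3.99 in TKO ESC and 7.57 and 5.96 in WT EB replicates 2 and 3. The neighbouring exon 5 region (chr13:55748958-55749224) was low and even, at 2.46, 4.32 and 3.93 in WT ESC and 2.81, 4.13 and 3.58 in TKO ESC. For Ddx3x, 39 peaks fell into 5 regions. The exon 5 region (chrX:12864164-12864605) had 6.92, 13.1 and 18.6 in WT ESC, 5.20, 16.3 and 15.5 in TKO ESC and 12 and 12.4 in WT EB replicates 2 and 3, so the groups overlapped. The exon 4 region (chrX:12863167-12863411) had 3.65, 4.71 and 6.8 in WT ESC against 6.54, 7.61 and 18.6 in TKO ESC, with 1 WT ESC value above the lowest TKO ESC value. Ddx3y, the closely similar copy on the Y chromosome, had no peak, and reads that fit both copies could be split between them.

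**Figure D2:**
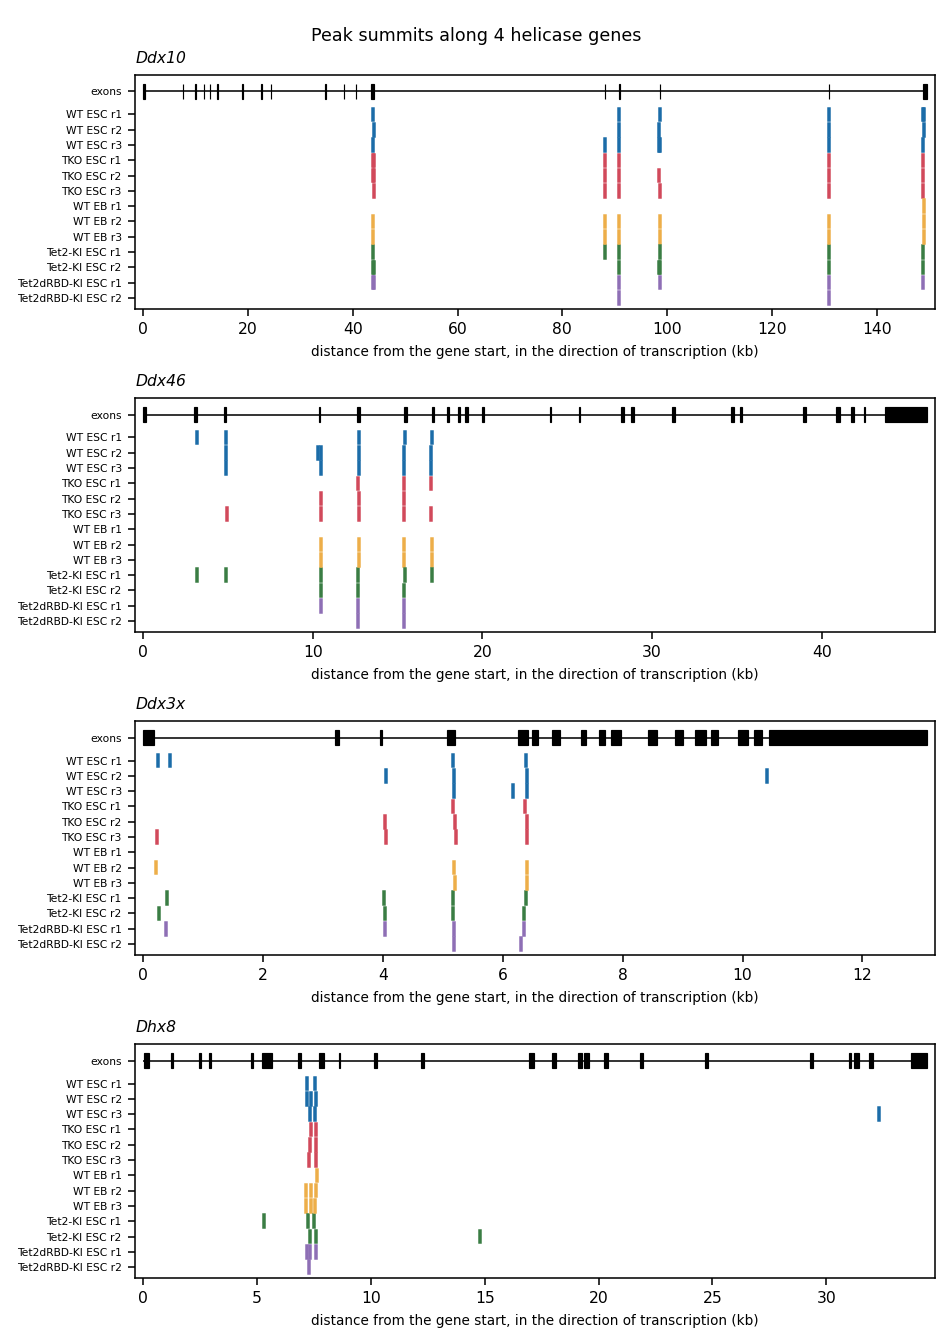
Peak summits (coloured ticks, 1 row per IP library) along Ddx10, Ddx46, Ddx3x and Dhx8, with the exons of the transcript with the longest coding sequence as black boxes and distance from the gene start in kb on each horizontal axis. Ticks of different libraries line up in columns: from exon 13 on in Ddx10, in the first 17.0 kb of Ddx46, at exons 4 and 5 of Ddx3x and in intron 7 of Dhx8.

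Several of these recurrent windows share runs of purines in which GA recurs with the spacing of codons, and codons that begin with GA encode aspartate and glutamate. Windows of recurrent regions in Ddx10, Ddx3x and Ddx46, and of 1 region each in Ddx42 and Ddx21, are shown because they differ in this feature. Not every recurrent region of these genes is shown, and that at Ddx10 exon 13 is among those left out. Capitals mark matches to GANGA on the strand of the gene (N is any base, overlapping matches counted), a motif chosen after the sequences were seen.
Ddx10 exon 18, chr9:52907287-52907437, strand minus: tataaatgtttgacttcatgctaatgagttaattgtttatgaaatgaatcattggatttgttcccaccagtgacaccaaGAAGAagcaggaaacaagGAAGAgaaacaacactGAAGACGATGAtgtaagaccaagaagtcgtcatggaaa
Ddx10 exon 17, chr9:52925259-52925409, strand minus: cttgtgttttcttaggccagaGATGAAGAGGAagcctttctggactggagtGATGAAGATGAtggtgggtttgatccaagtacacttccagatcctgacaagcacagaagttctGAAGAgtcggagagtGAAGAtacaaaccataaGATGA
Ddx10 exon 15, chr9:52965276-52965426, strand minus: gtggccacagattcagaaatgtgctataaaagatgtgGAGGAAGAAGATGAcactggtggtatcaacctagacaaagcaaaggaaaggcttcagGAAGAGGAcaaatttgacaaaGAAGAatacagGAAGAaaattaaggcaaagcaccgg
Ddx3x exon 5, chrX:12864417-12864567, strand plus: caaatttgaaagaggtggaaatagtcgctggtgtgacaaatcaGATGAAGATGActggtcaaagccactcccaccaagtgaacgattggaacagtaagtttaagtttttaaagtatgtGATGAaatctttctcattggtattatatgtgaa
Ddx3x exon 4, chrX:12863205-12863355, strand plus: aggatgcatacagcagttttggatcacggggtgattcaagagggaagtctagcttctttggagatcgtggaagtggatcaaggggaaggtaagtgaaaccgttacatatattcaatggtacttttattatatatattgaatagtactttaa
Ddx46 exon 6, chr13:55751710-55751860, strand plus: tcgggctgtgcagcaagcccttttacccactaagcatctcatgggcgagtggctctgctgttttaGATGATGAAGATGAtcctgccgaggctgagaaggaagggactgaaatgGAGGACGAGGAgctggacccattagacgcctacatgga
Ddx46 exon 5, chr13:55749016-55749166, strand plus: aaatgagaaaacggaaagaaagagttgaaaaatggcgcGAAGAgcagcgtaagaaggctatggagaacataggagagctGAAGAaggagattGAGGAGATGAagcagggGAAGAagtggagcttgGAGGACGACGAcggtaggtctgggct
Ddx42 exon 18, chr11:106109172-106109322, strand plus: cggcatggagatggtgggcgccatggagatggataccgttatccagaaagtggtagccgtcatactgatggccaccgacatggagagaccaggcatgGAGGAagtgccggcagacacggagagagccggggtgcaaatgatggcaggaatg
Ddx21 exon 2, chr10:62061134-62061284, strand minus: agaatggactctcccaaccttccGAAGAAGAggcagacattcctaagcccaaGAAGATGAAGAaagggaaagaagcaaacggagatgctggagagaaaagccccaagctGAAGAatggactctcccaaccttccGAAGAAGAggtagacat
Over the 200 bp around the median summit, the 42 helicase regions with coding sequence at that summit held a mean of 3.79 GANGA matches, and 19.0% of them held 8 or more. Consecutive 200 bp windows along the coding sequence of all helicase genes (675 windows) held a mean of 1.73, and 1.93% held 8 or more. At least 1 match was present in 83.3% of the regions and 73.2% of the windows. Counted per peak, the 11384 coding-sequence peaks of all coding genes held a mean of 4.07, with at least 1 match in 86.4%, so such matches were frequent outside the family too. Per library, coding-sequence peaks of helicases held a mean of 4 to 6.9 matches and those of all coding genes 2.89 to 6.13. The helicase mean was the higher in 10 of 13 libraries. In the other libraries, whose labels begin with 1608 or 1610, it was the lower. For replicate 1 it was 5 against 5.14 (WT ESC), 5.83 against 6.13 (TKO ESC) and 4 against 5.1 (WT EB). In these means a region present in many libraries counts once for each of its peaks, and since the motif was chosen on helicase sequences they describe those sequences and test nothing. The 12 helicase regions in at least 10 libraries held a mean of 5.5, while the Ddx3x exon 4 region held none. Matches to TCNTC, the same letters on the other strand, were fewer: a mean of 0.500 in the 42 regions and 0.867 in the windows. In the reading frame, codons beginning with GA were counted in 13 regions, each found in at least 9 libraries and most of them in Ddx10 and Ddx46. Their share was larger under the region than in the whole coding sequence of the gene in 12 of the 13 regions. The median was 22.9% under the regions, beside 13.3% to 17.2% in the coding sequences. These codons too were chosen after the sequences were seen, so the count describes these regions and tests nothing. No such share was computed over all coding genes. Some regions were close to their gene, as in Ddx42 (15.2% against 13.9%) and Ddx21 (17.9% against 14.3%). At the upper end they made up 51.4% of the 37 codons under the Ddx46 exon 6 region, against 16.9% of its whole coding sequence. Under the Ddx10 exon 17 region they made up 37.0% of 46 codons, against 17.2%, and under the Ddx3x exon 4 region, the lowest, 10.5% of 38 codons, against 13.4%.

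By part of the transcript, 187 of the 394 helicase peaks (47.5%) had their summit in coding sequence (CDS), 186 (47.2%) in an intron, 15 (3.81%) in a 3' UTR and 6 (1.52%) in a 5' UTR. Over all coding genes the shares were 23.8%, 67.9%, 3.79% and 4.57%. The CDS share of helicase peaks was above that of all coding genes in 13 of 13 libraries. The mean was 49.0% ± 8.54 in WT ESC beside 19.3% for all coding genes, 46.4% ± 14.4 in TKO ESC beside 29.3%, and 54.7% ± 6.8 beside 35.9% for WT EB (SD, n = 3 each). In Tet2-KI ESC it was 42.4% and 45.7%, and in Tet2dRBD-KI ESC 36.7% and 60.9%. The groups overlapped, and the smallest gap to all coding genes was in TKO ESC replicate 2 (31.2% against 25.7%). Of the 187 helicase peaks in coding sequence, Ddx10 held 45, Ddx46 29 and Ddx3x 21, so the same few exons were counted in many libraries. In 19 related RNA helicases with other symbols, 52 of 104 peaks lay in coding sequence. Of the 186 intronic helicase summits, 109 (58.6%) lay close enough to an exon for their interval to reach it, beside 21.7% over all coding genes. This share was the higher for helicases in 12 of 13 libraries, the exception being Tet2dRBD-KI ESC replicate 2 (14.3% against 23.4%). Tandem repeats of units of 1 to 4 nt, which the longer Dhx8 unit is not, lay in 1.02% of helicase peaks and 7.45% of all. No helicase interval was at least 65% pyrimidine, beside 3.85% over all coding genes. At most 35% pyrimidine was found in 23.6% and 24.4%, and the median pyrimidine share of helicase peaks was the higher in 8 of 13 libraries.

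**Figure D3:**
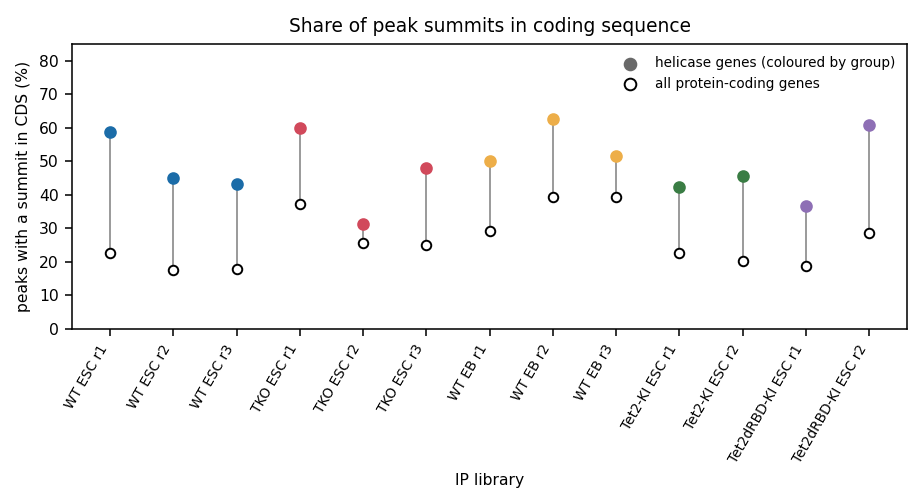
Percentage of peak summits in coding sequence in each of the 13 IP libraries, for helicase genes (filled points, coloured by group) and all protein-coding genes (open points), joined by a line per library. The filled point is the higher in 13 of 13 libraries, at 31.2% to 62.5%.

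Recurrence within a group was the next question, since a peak in every replicate is less likely to rest on 1 library. Every WT ESC library had a peak in 9 helicases (16.7%), beside 4.99% of all coding genes. They were Ddx10, Ddx11, Ddx17, Ddx21, Ddx3x, Ddx42, Ddx46, Ddx6 and Dhx8. In TKO ESC the count was 5 (9.26%), beside 1.34%, and the 5 genes Ddx10, Ddx3x, Ddx42, Ddx46 and Dhx8 are all among the 9. In WT EB it was 2 (Ddx10 and Dhx8, 3.70%), beside 0.626%. For the knock-in lines it was 21 (38.9%) in Tet2-KI ESC, beside 10.3%, and 11 (20.4%) in Tet2dRBD-KI ESC, beside 5.91%. With groups of 2 libraries the condition is easier to meet than with 3. The counts in TKO ESC and WT EB rose when replicate 1, the shortest list of each group, was left out, which also eases the condition to 2 libraries: without TKO ESC replicate 1 the count was 8 (14.8%), beside 4.78% of all coding genes, and without WT EB replicate 1 it was 9 (16.7%), beside 3.08%. In the 1703 libraries alone, which are these same pairs, WT ESC had 11 such genes (20.4%), beside 8.39%. With each list shortened to its 498 strongest peaks the order of WT ESC and TKO ESC turned, to 2 (Ddx10 and Dhx8, beside 0.438%) in WT ESC and 3 (also Ddx3x, beside 0.299%) in TKO ESC. For regions the order was alike, with 17 of 43 helicase regions (39.5%) found in every WT ESC library, beside 12.9% over all coding genes, 11 of 41 (26.8%) beside 6.01% in TKO ESC and 2 of 31 (6.45%) beside 2.76% in WT EB. Without WT EB replicate 1 the last count was 19 of 30 (63.3%), beside 33% over all coding genes. In the knock-in lines it was 30 of 73 regions (41.1%) beside 26.1% and 14 of 36 (38.9%) beside 22.1%.

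**Figure D4:**
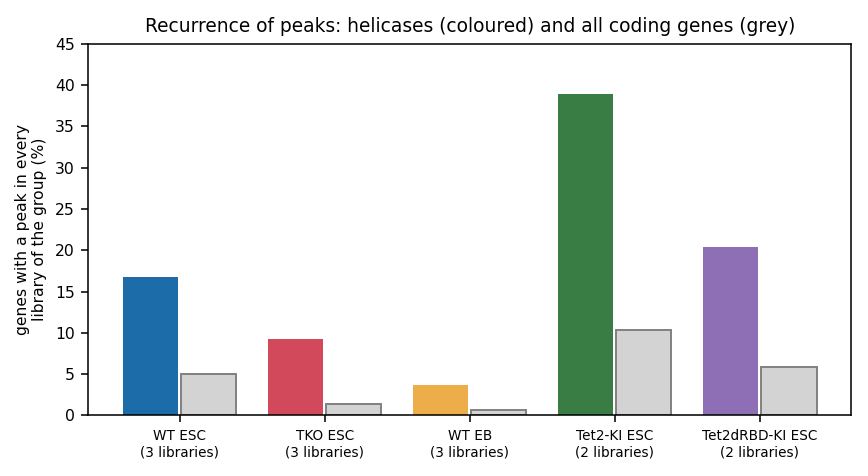
Percentage of the 54 helicase genes (coloured bars) and of all protein-coding genes (grey bars) with a peak in every library of a group. Bars stand at 16.7% against 4.99% in WT ESC, 9.26% against 1.34% in TKO ESC, 3.70% against 0.626% in WT EB, 38.9% against 10.3% in Tet2-KI ESC and 20.4% against 5.91% in Tet2dRBD-KI ESC.

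WT ESC were compared with TKO ESC to ask which helicase peaks go with the Tet enzymes. Helicase peaks were listed in both: 34, 29 and 30 in WT ESC (mean 31.0 ± 2.65, SD, n = 3) and 20, 32 and 25 in TKO ESC (25.7 ± 6.03, SD, n = 3). The ranges overlap. As a share of all coding-gene peaks they were 1.10%, 0.528% and 0.626% in WT ESC and 2.48%, 0.802% and 0.897% in TKO ESC. The mean share was 0.752% ± 0.307 and 1.39% ± 0.940 (SD, n = 3 each), a difference smaller than the SD of TKO ESC, whose replicate 1 had the shortest list of the 6. TKO ESC was the higher at 3 of 3 replicate numbers, which were not taken as pairs. At each number the TKO ESC list was also the shorter, with 808, 3990 and 2786 coding-gene peaks against 3087, 5493 and 4790. The part of list length in the shares was not tested. Without replicate 1 of either group the mean shares were 0.577% and 0.850%, and these 1703 libraries, 2 against 2, did not overlap. Of 25 helicases with a peak in either group, 1 had a peak in every WT ESC library and no TKO ESC library (4.00%), beside 4.80% of all coding genes. In the other direction there were 0 of 25, beside 0.0814%. By genes, both shares are near those of all coding genes and are no result about the helicases. By regions, 1 of the 17 in every WT ESC library (5.88%) had no TKO ESC peak, beside 26.4% over all coding genes. Of the 11 in every TKO ESC library, 0 had no WT ESC peak, beside 1.67%. The gap between these shares was not tested.

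The 1 gene was Ddx11, a helicase that acts on DNA in sister chromatid cohesion. Its region at the edge of intron 4 (chr17:66479849-66480173), with 2 of 4 summits in coding sequence, had a fold enrichment of 5.77, 8.46 and 9.07 in WT ESC. It held no peak in any TKO ESC or WT EB library and a peak in 1 Tet2-KI ESC library. Ddx6, a helicase of P-bodies and mRNA decay, came near: its intron 1 region had 6.8, 12.4 and 9.49 in WT ESC, and in TKO ESC a peak (4.68) in replicate 1 only. Without TKO ESC replicate 1, Ddx6 joined Ddx11 and the count was 2 of 25 (8%), beside 5.76% of all coding genes, and in the 1703 libraries alone these 2 of 22 (9.09%) stood beside 13.1%. Leaving out WT ESC replicate 3 also gave 2, with Ddx39, of 24 (8.33%), beside 8.39%.

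Fold enrichment was compared between WT ESC and TKO ESC in the 10 helicase regions with a peak in all 6 libraries. The two-sided exact permutation test of mean log2 fold enrichment cannot give a p below 0.1 with 3 libraries against 3. Of the 10 regions, 7 had the higher mean in TKO ESC and 3 in WT ESC, with differences (WT ESC minus TKO ESC) from -0.995 to 0.42 on the log2 scale. Over the 244 such regions of all coding genes 47.1% had the higher mean in TKO ESC, and the median difference was 0.03. Only in the Ddx10 exon 18 region did the groups not overlap, with a difference of -0.91 on the log2 scale (exact permutation p = 0.1, Benjamini-Hochberg adjusted over 10 regions p = 0.75). Among the 244 regions 8.61% did not overlap. Within the 1703 libraries, 2 against 2, the difference there was -0.83 (exact p = 0.333, the smallest that design allows). The lowest adjusted p over the 10 regions was 0.75, and the 4 Ddx10 regions among them share a gene. For the Dhx8 repeat the difference was 0.42 (exact p = 0.3), and for the Ddx3x exon 4 region -0.995 (exact p = 0.2).

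**Figure D5:**
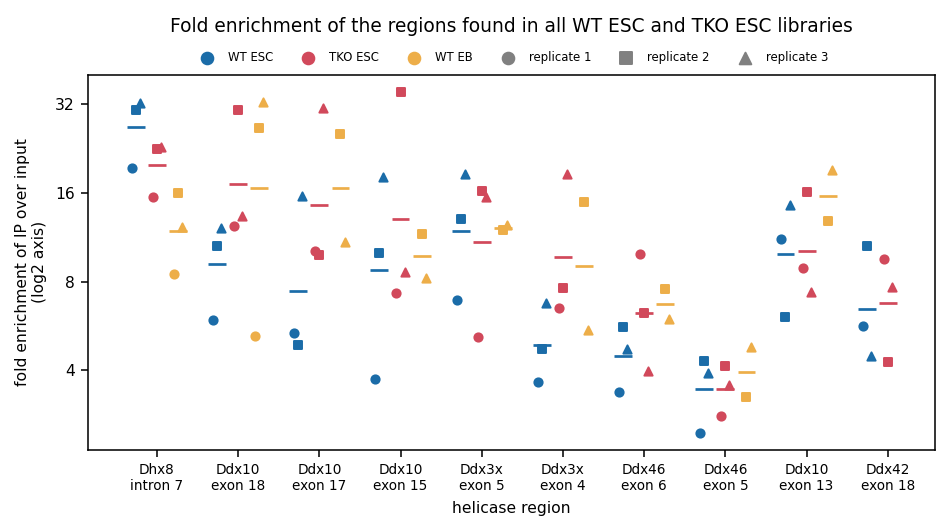
Fold enrichment of IP over input (log2 axis) in the 10 helicase regions with a peak in all WT ESC and TKO ESC libraries, by group (colour) and replicate (marker), with the geometric mean of each group as a bar. WT EB points are drawn where a peak was listed. Groups overlap in 9 of the 10 regions, the exception being exon 18 of Ddx10.

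Over all helicase peaks of a library, the median fold enrichment had a mean of 6.29 ± 0.488 for WT ESC, 8.06 ± 0.572 for TKO ESC and 7.86 ± 2.47 for WT EB (SD, n = 3 each). All coding-gene peaks gave 5.92, 6.68 and 6.63. The helicase median was the higher in 7 of 9 libraries, so the gap to all coding genes had the same sign in most but not all of them. The length of the lists differed between these groups too, and its part was not tested. Ddx17, a partner of Drosha and of the spliceosome, differed in part of transcript, with 14 of its 21 peaks in the 3' UTR. Its recurrent 3' UTR region (chr15:79359859-79360087, exon 13) had 31.6, 11.2 and 18.8 in WT ESC, 8.05 and 6.88 in TKO ESC replicates 1 and 3, and 5.18 in WT EB replicate 1. Each of the 3 WT ESC values was above those 3 values, in a region that was not tested because TKO ESC replicate 2 had no peak there.

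The same WT ESC libraries were compared with WT EB to follow the peaks into early differentiation. WT EB held 4, 24 and 31 helicase peaks (19.7 ± 14, SD, n = 3), which overlaps the 29 to 34 of WT ESC. Of 23 helicases with a peak in either group, 3 had a peak in every WT ESC library and no WT EB library (13%), beside 9.53% of all coding genes. In the other direction there were 0 of 23, beside 0.0413%. The 3 genes were Ddx11, Ddx6 and Ddx42, a helicase bound to the SF3b complex of the spliceosome. These 3 were found also in the 1703 libraries alone, there 3 of 20 (15%), beside 22.5% of all coding genes. Without WT EB replicate 1 they were 3 of 23 (13%), beside 10.9%. With peaks above the median fold enrichment of each list the count was 1 of 17 (5.88%), beside 8.05%. The last exon of Ddx42, exon 18 (chr11:106109130-106109457), had a fold enrichment of 5.64, 10.6 and 4.49 in WT ESC and 9.52, 4.28 and 7.70 in TKO ESC, where it was present in every library. It was also present in every knock-in library, so of the 5 groups WT EB was the one without it. By regions, 4 of the 17 in every WT ESC library (23.5%) had no WT EB peak, beside 47.5% over all coding genes. The fourth was exon 3 of Ddx46, with 6.44, 5.07 and 5.39 in WT ESC. The Ddx10 exon 18 region averaged 21.5 ± 14.4 in WT EB and 9.58 ± 3.26 in WT ESC (SD, n = 3 each), a difference within the spread of WT EB, whose replicate 1 was the lowest of all 6 values.

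Tet2-KI ESC were compared with Tet2dRBD-KI ESC to ask what the RNA-binding domain of Tet2 changes. Tet2-KI ESC held 66 and 46 helicase peaks and Tet2dRBD-KI ESC 30 and 23, so the groups of 2 did not overlap. The whole lists differed the same way, and as a share of coding-gene peaks the helicases made up 0.757% and 0.855% against 0.719% and 0.729%. Of 28 helicases with a peak in either group, 4 had a peak in both Tet2-KI ESC libraries and in neither Tet2dRBD-KI ESC library (14.3%), beside 9.27% of all coding genes. In the other direction there were 0 of 28, beside 1.86%. The 4 were Ddx1, of the tRNA ligase complex, Ddx21 and Ddx27, both of ribosome biogenesis, and Ddx5, a partner of Ddx17 in splicing and transcription. Ddx21 held all 14 of its peaks in exon 2 and was present in 3 WT ESC, 2 TKO ESC, 2 WT EB and 2 Tet2-KI ESC libraries. Its fold enrichment there was 5.37, 7.45 and 5.12 in WT ESC, 5.78 and 7.83 in TKO ESC replicates 2 and 3, and 11.8 and 13.1 in WT EB replicates 2 and 3. Both WT EB values were above all 5 stem cell values. Ddx1 had peaks in 7 libraries and Ddx5 in 6, and Ddx27 in 4, with 5 of its 7 peaks in Tet2-KI ESC. The region of Ddx27 in exon 17 had a fold enrichment of 3.10 in WT ESC replicate 3 and 6.79 in TKO ESC replicate 1. Leaving out Tet2-KI ESC replicate 1 kept the count at 4, of 24 (16.7%), beside 21.8% of all coding genes, and leaving out any other library raised it. Without Tet2-KI ESC replicate 2 it was 8 of 28 (28.6%), beside 33.1%. Without Tet2dRBD-KI ESC replicate 1 it was 7 of 28 (25%), beside 20.4%, and without replicate 2 of that group 7 of 26 (26.9%), beside 13.5%. By regions, 5 of the 30 in both Tet2-KI ESC libraries (16.7%) were absent from Tet2dRBD-KI ESC, beside 35.2% over all coding genes, among them the 5' UTR of Ddx42.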

How the data were processed

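RNA 5hmC peaks of 13 IP libraries were analysed, and the 13 input libraries were used only through the authors' peak calling. The authors removed low-complexity reads with AfterQC and rRNA and tRNA reads with Bowtie2, trimmed with Trimmomatic, mapped with STAR to mm9 and a RefSeq transcriptome, and called summits per library (IP against the matching input) with MACS2 at q below 0.05; versions are not given in the sources used here. The deposited lists hold 200 bp intervals and, in 9 libraries, a ratio (the authors' fold enrichment over input). No counts were used, so no count test could be run and depth is unknown.

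Genes and exons came from GENCODE M1 and sequence from NCBIM37, the assembly of mm9. A summit was placed in CDS before UTR before intron, over coding transcripts. Intervals overlapping by at least 1 bp were merged into regions, and in each library the highest fold enrichment of a region was used. The 10 regions were tested by two-sided exact permutation with Benjamini-Hochberg adjustment. All else is given as counts beside all coding genes. Units of 1 to 3 nt repeated over 18 nt or more, or of 4 nt over 20 nt or more, made a tandem repeat. Named were genes with a peak in at least 10 libraries, genes or regions in every library of one group and none of the other, the 10 regions in most libraries, the 5 strongest found in every WT ESC library, and all genes without a peak; up to 4 related helicases were given values. Ddx4, Ddx43, Dhx40, Ddx39 and, in the closing section, Dhx9, Ddx55, Ddx39b and Ddx50 were named after their values were seen. The members and lists were chosen with earlier results of these data known. Over 78 pairs of libraries, at most 1.97% of intervals were identical. The alternatives were placement by interval overlap, stricter or shortened lists, peaks in a single coding gene, peaks without tandem repeats, the 1703 libraries only, 2 of 3 replicates, other exon definitions, an overlap of 100 bp, the linear scale, the mean of peaks, leaving out each replicate in turn and a replicate block. Simulated peaks with known placement served to test the scripts. Python 3.11.15, pandas 2.3.3, numpy 2.4.6, scipy 1.17.1 and samtools 1.23.1 were used.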

Additional observations from a re-analysis of the deposited data

How the results depend on the processing

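Of the counts and means that answer a comparison, 57 of 74 alternative values with no single library left out stayed within 1.5 times (counts) or 1 SD (means). Some of these could not move: no helicase peak lay in more than 1 coding gene, so keeping only peaks in a single coding gene changed nothing. Helicases with a peak in every library fell from 9 to 2 in WT ESC and from 5 to 3 in TKO ESC when lists were shortened to 498 peaks, and from 2 to 1 in WT EB with fold enrichment above the median of the list. In the 1703 libraries alone they were 8 in TKO ESC and 9 in WT EB, and in at least 2 of 3 replicates 10 (18.5%, beside 5.36% of all coding genes) and 11 (20.4%, beside 3.42%). With presence in all libraries of one group against none of the other, the 1703 libraries gave 2 helicases for WT ESC not TKO ESC (9.09%, beside 13.1% of all coding genes), 1 for TKO ESC not WT ESC (4.55%, beside 2%) and 2 for WT EB not WT ESC (10%, beside 1.24%); WT ESC not WT EB fell from 3 to 1 above the median fold enrichment. Without tandem repeats the helicase share in Tet2dRBD-KI ESC was 0.757%. With any exon overlap counted as exonic, the intronic share became 17.4% (WT ESC), 14.9% (TKO ESC), 8.47% (WT EB), 25.2% (Tet2-KI ESC) and 26.4% (Tet2dRBD-KI ESC), from 46.8%, 50.6%, 35.9%, 49.7% and 40.2%. The cause of these changes was not tested.

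Leaving out each replicate gave 9 to 11 helicases in every WT ESC library (16.7% to 20.4%, beside 6.07% to 8.39% of all coding genes), 6 to 8 in TKO ESC (11.1% to 14.8%, beside 1.56% to 4.78%) and 2 to 9 in WT EB (3.7% to 16.7%, beside 0.769% to 3.08%). For helicase regions, an alternative chosen after seeing the data, it gave 17 to 19 in WT ESC (43.6% to 57.6%, beside 22.4% to 29.3%), 11 to 16 in TKO ESC (30.6% to 46.4%, beside 9.08% to 32.1%) and 2 to 19 in WT EB (9.09% to 63.3%, beside 3.51% to 33%). In the knock-in groups it leaves 1 library, so the 21 to 26 and 14 to 17 helicases and the 41 to 62 and 23 to 27 regions are all those of that library and say nothing of recurrence. For presence in one group and not the other, counts ran from 1 to 2 (WT ESC not TKO ESC), 0 to 1 (the reverse, at most 4%, beside 1.74%), 3 to 4 (WT ESC not WT EB, at most 21.1%, beside 15%), 0 to 1 (the reverse, 4.35%, beside 0.941% without WT EB replicate 1 and 0.083% without replicate 2), 4 to 8 (Tet2-KI ESC not Tet2dRBD-KI ESC) and 0 to 2 (the reverse, at most 7.14%, beside 11.2%). The helicase share ran from 0.577% to 0.864% in WT ESC, 0.850% to 1.69% in TKO ESC, 0.881% to 1.18% in WT EB, 0.757% to 0.855% for Tet2-KI ESC and 0.719% to 0.729% for Tet2dRBD-KI ESC. The intronic share ran from 43.5% to 52.5%, 41.5% to 58.4%, 31.2% to 41.3%, 47.8% to 51.5% and 30.4% to 50.0% in that order. The median fold enrichment ran from 6.03 to 6.51 in WT ESC, 7.85 to 8.38 in TKO ESC and 6.74 to 9.19 in WT EB.

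Of the 10 regions tested, 5 to 8 had the higher mean in TKO ESC when 1 library was left out. Differences changed sign in Ddx3x exon 5 (-0.10 with the mean of the peaks, -0.0239 in the 1703 libraries), Ddx46 exon 6 (0.0437 in the 1703 libraries), Ddx10 exon 13 (0.0752 with the mean of the peaks) and Ddx42 exon 18 (0.27 in the 1703 libraries). Without 1 library the log2 differences ran from -1.09 to 0.14 in Ddx10 exon 15, -0.31 to 0.32 in Ddx10 exon 13, -0.41 to 0.51 in Ddx3x exon 5, -0.43 to 0.19 in Ddx42 exon 18 and -0.15 to 0.25 in Ddx46 exon 5, and kept their sign in the other 5 regions. With the replicate block, 7 regions still had the higher mean in TKO ESC, and the lowest p was 0.25, the smallest that sign flips of 3 pairs allow; the deviations of same-numbered libraries correlated at 0.571, -0.0457 and 0.178 over 10 regions, so the numbers were not taken as pairs. Alternatives that need fold enrichment could not be run for the knock-in lists.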

Other observations

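Of 19 related RNA helicases whose symbols do not begin with Ddx or Dhx, 12 (63.2%) had a peak in at least 1 library, with 104 peaks in all. That share lay beside 61.1% of the Ddx and Dhx genes and 32.2% of all coding genes. Snrnp200, the helicase that unwinds U4 from U6, had 28 peaks in 10 libraries. It had a peak in every WT ESC library and in 2 of 3 TKO ESC and 2 of 3 WT EB libraries. Eif4a1, the translation initiation helicase, had 9 peaks in 4 libraries, and its close relative Eif4a2 had 8 in 6.

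Among helicases with fewer peaks, Dhx9 (RNA helicase A) held 22 peaks in 9 libraries, and 13 of the 22 lay in coding sequence. Ddx55, of large ribosomal subunit assembly, held 14 peaks in 9 libraries, 8 of them in coding sequence. Ddx39b, an mRNA export helicase, held 7 peaks, all intronic and all in the 4 knock-in libraries, in which fold enrichment was not listed. Ddx50, a paralogue of Ddx21, held 6 peaks, all in coding sequence, in 2 WT EB, 2 Tet2-KI ESC and 1 Tet2dRBD-KI ESC libraries. These 4 genes were chosen after their values were seen.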
